A study of Homo sapiens with 12 samples.

Results

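The E2F and RB family comprises the transcription factors that switch on, or hold off, the genes a cell needs to copy its DNA, together with the pocket proteins that bind them. Members were taken as listed genes, by symbol and Ensembl identifier, with no cutoff on their values. They and the other gene lists were chosen with earlier results of these data known. The E2Fs are the activators E2F1, E2F2 and E2F3, the canonical repressors E2F4 and E2F5, and the atypical repressors E2F7 and E2F8. The pocket proteins are RB1, RBL1 and RBL2. Together the members are 10 of the 54127 genes in the count files, and all 10 were among the 14501 genes tested. C4-2 is a human prostate cancer cell line derived from LNCaP cells. The cells were grown in RPMI medium with fetal bovine serum and reverse-transfected with 50 nM of an siRNA pool against CHKA (siCHKA, n = 6), the enzyme that phosphorylates choline in the first step of phosphatidylcholine synthesis, or with nontargeting siRNA (siNT, n = 6). Messenger RNA was sequenced from all 12 samples, the labels describing the cells as flow sorted without naming the gate. The paper speaks of biological replicates, in numbers that differ between its analyses, and all 6 per group were used here. The labels give neither the time of harvest nor whether the replicates were separate cultures, and P values measure the spread between these samples.

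In a resting or early G1 cell, pocket proteins bind E2F factors and silence their target genes. RBL1 or RBL2 with E2F4 or E2F5, a DP partner and the MuvB core form the DREAM complex. Cyclin D with CDK4 or CDK6, and then cyclin E with CDK2, phosphorylate the pocket proteins and release the activator E2Fs. These in turn drive G1/S genes, among them E2F1, E2F2, E2F7, E2F8 and RBL1 themselves, and E2F7 and E2F8 later shut those genes down again without pocket proteins.

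Counts on genes ranged from 10685184 to 24246055 per sample, with a median of 18600973 after siCHKA and 16912852.5 after siNT, so 3 counts, the floor used here for detection, corresponded to between 0.124 and 0.281 CPM (counts scaled to library size, with TMM factors). The floor covers counting error only. Members were well above it, with raw counts between 80 and 2752. CHKA itself was left at 6.76% of its siNT level (2.75 ± 1.03 against 40.7 ± 2.55 CPM, SD, n = 6 per group). Another gene overlaps 16.3% of CHKA's exons. Luminal prostate genes were abundant (KLK3 at 1726 to 3811 CPM). Of the other cell types, basal markers summed to 1.81 to 2.27 CPM after siCHKA against 1.195 to 1.65 CPM after siNT. This was largely KRT14, the 1 tested basal marker, which was higher (log2 fold change 0.58). Fibroblast and smooth muscle markers summed to 26.6 to 34.5 against 16.2 to 23.6 CPM, largely COL1A1. Of 4 tested, 2 were higher, and PDGFRB was lower (1.37 against 3.74 CPM). COL3A1 was at 0.189 against 0.416 CPM, and COL1A2, DCN and LUM were at or near 0. Leukocyte markers were 4.20 to 6.21 against 2.82 to 4.28 CPM, largely CD68, with PTPRC and CD3E at or near 0. Endothelial markers were 1.13 to 1.86 against 2.13 to 3.65 CPM, largely VWF, with CDH5 and KDR below the floor. The part of these markers in the results was not tested. Among the siCHKA samples, replicates 1, 3 and 5 stood apart from replicates 2, 4 and 6. Pairs across these sets differed by a chi-square per degree of freedom of 12.5 to 24.9, against 4.05 to 9.498 within the former and 2.39 to 4.09 within the latter. The siNT samples were not uniform either. Their pairs differed by 2.51 (replicates 5 and 6) to 30.9 (replicates 3 and 5), without a split along these numbers. The sets did not overlap in CPM for 6883 tested genes (47.5%) and for 8 of the 10 members, so each member is also given for each set.

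The sequences that E2F factors recognize are shown first, because members differ in whether they carry one. The words TTTCCCGC, TTTCGCGC, TTTGCCGC and TTTGGCGC, exact forms of the E2F consensus, were searched on both strands from 250 bases before to 50 bases after the RefSeq start (GRCh38.p14). Such a word was present in 3.31% of all 35116 promoters of the table and in 6.62% of the 10594 matched to tested genes. All members but E2F5 and E2F8 matched the table, and E2F1, E2F2, E2F3 (in 1 of its 2 promoters) and RBL1 held at least 1 word. In the windows of 30 bases below, written 5′ to 3′ along the gene's strand, capitals mark the word, which in the first E2F1 window and in E2F3 reads on the opposite strand.
E2F1, chr20:33686400-33686429, minus strand: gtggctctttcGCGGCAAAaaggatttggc
E2F1, chr20:33686387-33686416, minus strand: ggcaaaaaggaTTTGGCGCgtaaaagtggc
E2F2, chr1:23531257-23531286, minus strand: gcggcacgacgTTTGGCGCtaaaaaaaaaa
E2F3, chr6:20401815-20401844, plus strand: ttgaaaagccgGCGGGAAAtccgagtttcg
RBL1, chr20:37096005-37096034, minus strand: cagctgcagatTTTCGCGCgctttggcgca
RBL1, chr20:37095995-37096024, minus strand: ttttcgcgcgcTTTGGCGCaggtggttgtg

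The first base of the word lay 33 and 20 bases before the start in E2F1, 42 before it in E2F2, 53 in E2F3 and 26 and 16 in RBL1. The paired windows of E2F1 and of RBL1 overlap, so each pair shows adjacent words of 1 promoter. No such word was found in the windows listed for E2F4, E2F7, RBL2 or RB1, and the RB1 entry does not cover the annotated start of the gene. These matches are a description of letters, not of bound sites.

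The comparison of siCHKA with siNT asks which family transcripts moved when CHKA was depleted. Of the 10 members, 9 were lower (adjusted P below 0.05, edgeR's quasi-likelihood test with Benjamini-Hochberg adjustment over all tested genes), none was higher, and RBL2 did not pass the test. Of all tested genes 30.1% were lower and 32.1% were higher, 62.2% in either direction. At least 2-fold falls were found for 4 members (E2F1, E2F2, E2F7 and E2F8), as did 4.51% of tested genes, and 7 members had siCHKA values wholly below the siNT values, as did 21.5% of tested genes. The median log2 fold change was −0.94 over the members and 0.03 over all tested genes. Counted with siCHKA replicates 1, 3 and 5 alone 9 members were lower, and with replicates 2, 4 and 6 alone 8 were. In bulk RNA, fewer cells in the phase that expresses a gene and less RNA per cell cannot be told apart.

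**Figure D1:**
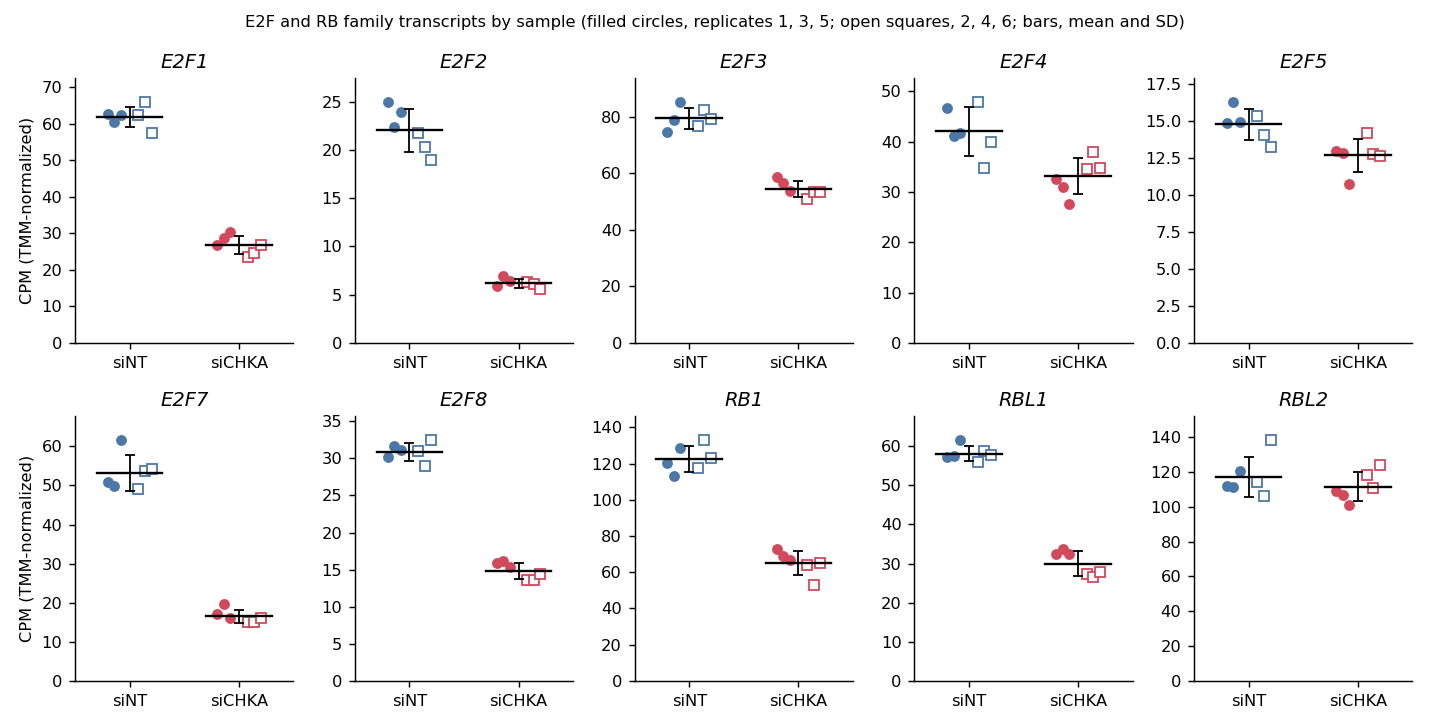
TMM-normalized CPM of the 10 family members in each of the 6 siNT and 6 siCHKA samples, with the mean and SD as black bars, replicates 1, 3 and 5 as filled circles and replicates 2, 4 and 6 as open squares. The groups are apart in 7 panels and overlap in those of E2F4, E2F5 and RBL2.

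Among the activators, which recruit coactivators to S phase genes, E2F2 fell furthest. E2F2 (ENSG00000007968, chr1:23506438-23531233 in GRCh38) had 5.61, 6.19 and 6.90 CPM after siCHKA (lowest, median and highest of 6) and 19.0, 22.1 and 24.9 CPM after siNT. Every siCHKA sample was below every siNT sample, and the mean was 28.1% of the siNT mean. The log2 fold change was −1.83 (SE 0.08, 95% interval −2.003 to −1.66, adjusted P = 4.77e-12, edgeR), which ranked 81 from the lowest of the tested genes. The 2 sets of siCHKA samples overlapped for this gene and gave −1.78 and −1.89.

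E2F1 (ENSG00000101412, chr20:33675477-33686385), the founding member of the family and its main inducer of S phase genes, had 23.5, 26.7 and 30.3 CPM after siCHKA and 57.5, 62.4 and 65.8 CPM after siNT. The groups did not overlap and 43.3% of the siNT level remained. Its log2 fold change was −1.21 (SE 0.06, interval −1.34 to −1.08, adjusted P = 2.67e-11, edgeR). It was −1.11 with siCHKA replicates 1, 3 and 5 and −1.32 with replicates 2, 4 and 6, the former set being the higher of the pair. E2F3 (ENSG00000112242, chr6:20401879-20493714), which encodes a full-length and a shorter isoform from separate promoters, fell least of the activators. It had 51.0, 53.5 and 58.5 CPM after siCHKA against 74.5, 78.9 and 85.0 CPM after siNT, again without overlap. This left 68.5% of the siNT level, a log2 fold change of −0.55 (SE 0.05, adjusted P = 3.91e-08, edgeR). The change was −0.49 with siCHKA replicates 1, 3 and 5, the higher set, and −0.60 with replicates 2, 4 and 6. Gene counts do not separate the E2F3 isoforms, and its processed pseudogenes share sequence with it, of which E2F3P2 is in the count files, so reads shared with them were not counted.

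The repressor E2Fs did not move as 1 group. The atypical pair bind DNA through a tandem domain without a DP partner. Gene by gene their falls lay within the range of the activators. Summed per kilobase of exon, the pair fell further, to 39.0% of siNT against 51.0% for the activators. E2F7 (ENSG00000165891, chr12:77021248-77065569) had 15.0, 16.1 and 19.6 CPM after siCHKA and 49.0, 52.2 and 61.5 CPM after siNT. The lowest siNT sample lay well above the highest siCHKA sample. With 31.0% of the siNT level left, the log2 fold change was −1.69 (SE 0.07, adjusted P = 4.71e-12, edgeR), rank 113 from the lowest. E2F8 (ENSG00000129173, chr11:19224063-19241620) had 13.6, 14.8 and 16.1 CPM after siCHKA and 29.0, 31.0 and 32.4 CPM after siNT. Its groups were equally separate, and 48.0% of the siNT level remained (log2 fold change −1.06, SE 0.06, adjusted P = 1.35e-10, edgeR). Both were somewhat higher in siCHKA replicates 1, 3 and 5, which gave −1.58 for E2F7 and −0.96 for E2F8, than in replicates 2, 4 and 6, which gave −1.80 and −1.16.

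The canonical pair, which repress through pocket proteins in resting cells and are not known for swings over the cycle, moved least of the E2Fs. E2F4 (ENSG00000205250, chr16:67192155-67198918) had 27.6, 33.6 and 38.0 CPM after siCHKA and 34.7, 41.5 and 47.8 CPM after siNT. The groups overlapped, with 4 of 6 siCHKA samples below the lowest siNT sample, and siCHKA replicates 1, 3 and 5 were here the lower set. The log2 fold change was −0.34 (SE 0.08, interval −0.52 to −0.17, adjusted P = 0.00167, edgeR), −0.46 with the former set and −0.24 with the latter. Reads shared with the pseudogene E2F4P1 were not counted. E2F5 (ENSG00000133740), on chromosome 8, had 10.7, 12.8 and 14.2 CPM after siCHKA and 13.2, 14.9 and 16.3 CPM after siNT. Of the 6 siCHKA samples, 5 were below the lowest siNT sample. Its log2 fold change of −0.22 (SE 0.07, interval −0.37 to −0.06, adjusted P = 0.0162, edgeR) was −0.27 with replicates 1, 3 and 5 alone and did not pass with replicates 2, 4 and 6 alone (−0.17, adjusted P = 0.0726) or with 1 count file per sample (−0.27, adjusted P = 0.0921). Neighboring genes cover 18.8% of its exons, where reads cannot be assigned without strand.

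**Figure D2:**
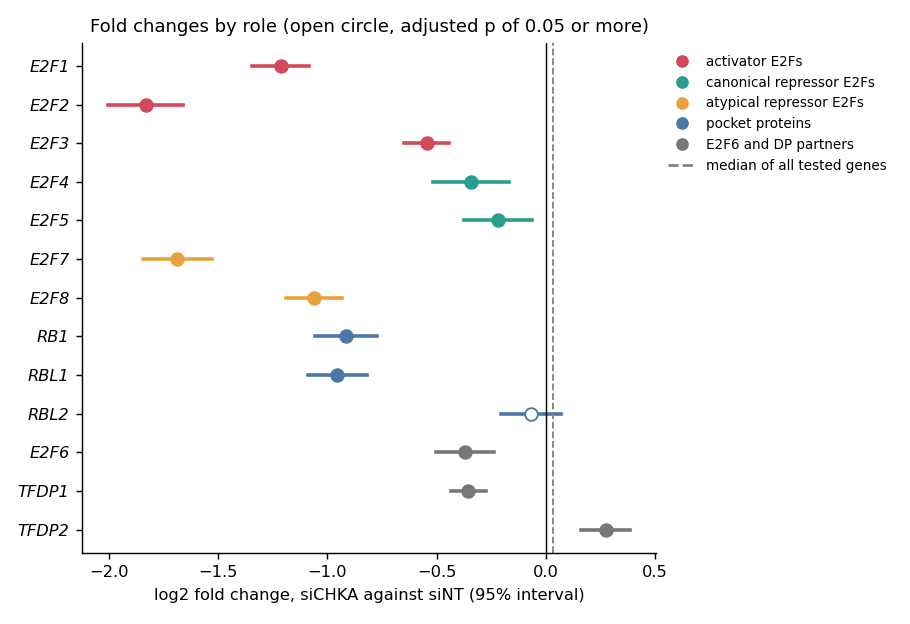
Log2 fold change of siCHKA against siNT with its 95% interval for the 10 members, E2F6 and the DP partners, colored by role, with the median of all tested genes dashed. E2F2, E2F7, E2F1 and E2F8 lie beyond −1, E2F4 and E2F5 lie between −0.37 and 0.27 with E2F6 and the DP partners, and the interval of RBL2 spans zero.

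RB1 and RBL1 fell by similar amounts while RBL2 did not pass the test. RB1 (ENSG00000139687, chr13:48303744-48599436), the retinoblastoma tumor suppressor that restrains the activator E2Fs, had 52.8, 65.7 and 72.9 CPM after siCHKA and 113, 122 and 133 CPM after siNT. All siCHKA samples were below all siNT samples, at 53.0% of the mean level. The log2 fold change was −0.92 (SE 0.07, adjusted P = 3.48e-09, edgeR), and −0.82 and −1.02 with the first and second set of siCHKA samples. RB1 was also the only member whose 3′ UTR held GCCAGAT or TGCCCTT, a pair of words already known from these data to mark lower genes. Of 12282 genes examined, 3075 (25.0%) held either word and 43.4% of those were lower, against 30.3% of the 9207 without. Since the words were known from these same data, that difference is no independent evidence about RB1. The other lower members held neither word. Whether the siRNA pool acted on these words was not tested.

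RBL1 (p107; ENSG00000080839, chr20:36996349-37095997), the pocket protein that accumulates in cycling cells, had 26.5, 30.1 and 33.8 CPM after siCHKA and 55.9, 57.7 and 61.4 CPM after siNT. No sample of either group reached the other. Its log2 fold change of −0.96 (SE 0.06, adjusted P = 1.03e-09, edgeR) left 51.6% of the siNT level, and was −0.82 and −1.10 in the 2 sets. RBL2 (p130; ENSG00000103479, chr16:53433977-53491648), the pocket protein of quiescent cells and of most DREAM complexes, had 101, 110 and 124 CPM after siCHKA and 106, 113 and 138 CPM after siNT. Its groups overlapped over most of their range. The log2 fold change was −0.07 with an interval from −0.21 to 0.07 (adjusted P = 0.379, edgeR), −0.14 in replicates 1, 3 and 5 and close to zero in replicates 2, 4 and 6. AKTIP overlaps 7.51% of RBL2's exons. In exact two-sided permutation tests of log2 CPM, P was 0.00216 for each of the 7 members without overlap, the smallest value that 6 against 6 samples allow, 0.00649 for E2F4 and for E2F5 and 0.364 for RBL2.

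The makeup of the family was compared on levels per kilobase of exon (RPKM). In siNT cells E2F1 was the most abundant member (22.997 ± 1.01 RPKM, SD), followed by RB1 (19.1 ± 1.11), E2F3 (15.3 ± 0.735) and RBL2 (14.4 ± 1.39), of which the last 2 overlapped. E2F4, RBL1, E2F7 and E2F8 followed at 11.7 to 7.47 RPKM, each overlapping the next, as RBL2 overlapped E2F4, and E2F2 (4.04) and E2F5 (2.47) came last without overlap. After siCHKA the order was led by RBL2 (13.7 ± 1.01 RPKM), above and apart from E2F3 (10.5), RB1 (10.1), E2F1 (9.95) and E2F4 (9.20), which overlapped from one to the next. RBL1 (5.04), E2F8 (3.58), E2F7 (2.62), E2F5 (2.12) and E2F2 (1.14) were each separate. The lead of RBL2 after siCHKA also held with the length of the longest coding transcript (22.97 against 15.7 RPKM for E2F4, the next), whereas RB1, RBL2 and E2F1 then led the siNT order at 25.7, 24.1 and 22.997 RPKM and overlapped.

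Set against each other, the activators and the repressors both lost transcript. Summed activators were 19.7 to 22.8 RPKM after siCHKA against 40.1 to 44.04 after siNT (mean 51.0% of siNT), and the 4 repressors together came to 17.5 ± 0.913 against 30.1 ± 1.42 RPKM (58.3%). The activator to repressor ratio was 1.116 to 1.45 (mean 1.24) after siCHKA and 1.35 to 1.60 (mean 1.41) after siNT, and the groups overlapped. In siCHKA replicates 2, 4 and 6 it was 1.116 to 1.19, below every siNT sample. It was also below every siNT sample in replicates 1 (1.25) and 3 (1.29). Only siCHKA replicate 5 (1.45) lay within the siNT range. With the length of the longest coding transcript the ratio was 0.672 to 0.910 (mean 0.761) after siCHKA and 0.898 to 1.096 (mean 0.957) after siNT, so that which class was the more abundant depended on the length used, while the mean was lower after siCHKA with either. Within the repressors the composition did shift. The atypical pair fell to 39.0% of its siNT sum (6.21 ± 0.527 against 15.9 ± 0.798 RPKM) and the canonical pair to 80.0% (11.3 ± 1.12 against 14.2 ± 1.41). Of the summed transcript of these 7 E2Fs, the canonical repressors made up 29.0% after siCHKA and 19.5% after siNT, and the atypical repressors 15.9% and 22.0%, neither with overlap between groups. Within the activators E2F3 rose from 36.1% to 48.7% of the sum as E2F1 went from 54.3% to 46.1% and E2F2 from 9.54% to 5.27%.

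**Figure D3:**
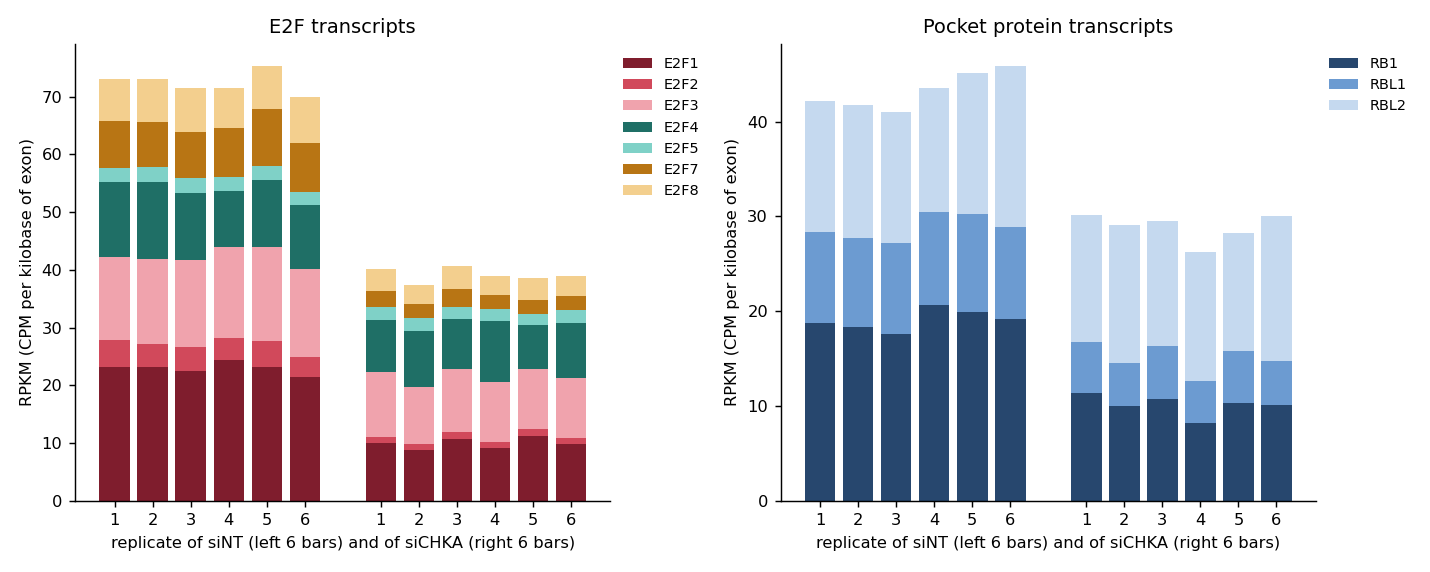
Stacked RPKM of the 7 E2F transcripts (left) and the 3 pocket protein transcripts (right) in each siNT and siCHKA replicate. Summed activators lie between 40.1 and 44.04 RPKM after siNT and between 19.7 and 22.8 after siCHKA, while the RBL2 segment keeps nearly its height.

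The pocket proteins summed to 28.9 ± 1.46 RPKM after siCHKA and 43.2 ± 1.96 after siNT (66.8%). RBL2 accounted for 44.1 to 51.9% of that sum after siCHKA and 29.99 to 37.1% after siNT. RB1 went from 44.1% to 34.9% and RBL1 from 22.6% to 17.4%, and none of the 3 shares overlapped between groups. RB1 thus held the largest mean share in siNT cells and RBL2 in siCHKA cells.

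E2F6 and the tested DP partners moved less than the activators, the atypical repressors, RB1 and RBL1, but not less than E2F5 or RBL2. E2F6, a repressor that works with Polycomb complexes rather than pocket proteins, was lower (log2 fold change −0.37, 24.6 against 31.8 CPM), and so was TFDP1, the main dimerization partner (−0.35, 108 against 138 CPM). TFDP2, the alternative partner, was higher (0.27, 113 against 93.2 CPM). All 3 passed the edgeR test and did not overlap between groups, and TFDP3 was at 0 counts in all samples. Of all tested genes, 62.2% passed, 21.5% were wholly lower without overlap and 19.1% wholly higher.

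All 6 measured genes of the MuvB core and its activators were lower, with a median log2 fold change of −1.16, against 30.1% of all tested genes lower. In the core, LIN9 fell from 43.1 ± 2.90 to 16.8 ± 0.578 CPM (log2 fold change −1.36), LIN54, which contacts DNA, changed by −0.97, LIN52 by −0.48 and the histone-binding RBBP4 by −0.37. SYNC overlaps 22.8% of RBBP4's exons. MYBL2 (B-MYB), which replaces the pocket protein on MuvB in S phase, fell from 263 ± 29.4 to 64.4 ± 9.69 CPM (−2.03). FOXM1, which joins later to drive mitotic genes, fell from 192 ± 13.8 to 71.3 ± 6.78 CPM (−1.43). ITFG2 overlaps 15.9% of FOXM1's exons. LIN37 was not analysed here.

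The kinases that act on pocket proteins and their inhibitors split, with 7 of 15 tested genes lower, 6 higher and 2 not past the test (median −0.08). Both directions were also common over all tested genes, of which 30.1% were lower and 32.1% higher. Of the kinases, CDK2 changed by −1.26 on the log2 scale, CDK6 by −0.99 and CDK4 by −0.47. Other genes overlap 44.3% of the exons of CDK4 (TSPAN31), 37.1% of those of CCNE2 (INTS8) and 16.8% of those of CDK2. The cyclins parted ways. CCNA2, the S phase partner of CDK2, fell from 150 ± 16.3 to 46.5 ± 1.97 CPM (−1.70) and CCNE2 from 36.7 ± 3.99 to 17.0 ± 2.47 CPM (−1.11). CCNE1, the other E-type cyclin, rose from 14.5 ± 1.46 to 23.4 ± 2.58 CPM (0.69, SE 0.09, adjusted P = 2.32e-06, edgeR), with every siCHKA sample (20.4 to 27.1 CPM) above every siNT sample (11.7 to 15.6 CPM). CCND1, a target of growth factor signaling, rose from 344 ± 30.9 to 502 ± 63.5 CPM (0.55), and CCND3 did not pass (−0.08, interval −0.22 to 0.06). CCND2 was below the floor and was not tested.

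Among the inhibitors, CDKN1A (p21), which blocks CDK2 complexes, rose from 48.9 ± 3.00 to 85.9 ± 18.4 CPM (0.81, SE 0.11, adjusted P = 6.53e-06, edgeR). Its siCHKA samples spanned 66.3 to 110 CPM, all above the siNT range of 44.8 to 52.4 CPM. CDKN2B (p15) rose at very low levels, from 0.528 ± 0.270 to 1.97 ± 0.660 CPM (1.97, SE 0.30). CDKN2A and CDKN1C each rose by 0.58 on the log2 scale, the latter with overlapping groups and not past the test with siCHKA replicates 2, 4 and 6 alone (0.53, adjusted P = 0.0510, edgeR). CDKN2C (p18, −0.80) and CDKN2D (p19, −0.77) fell, and CDKN1B (p27) did not pass (−0.08, interval −0.22 to 0.05). CDKN2B-AS1 overlaps 15.3% of CDKN2A's exons.

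**Figure D4:**
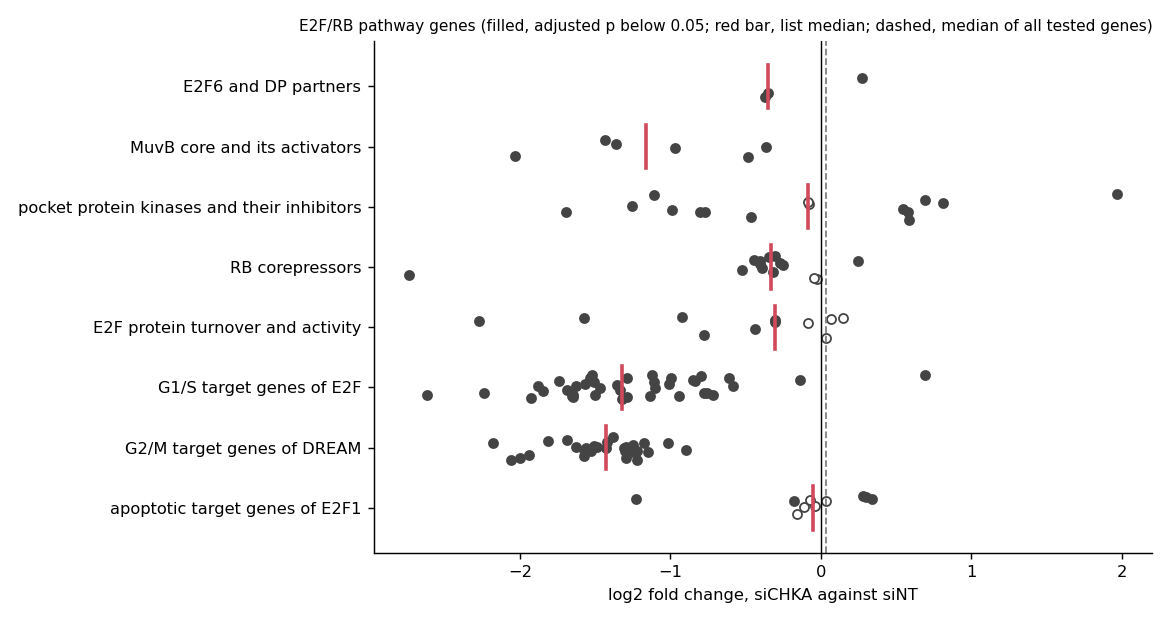
Log2 fold changes of the tested genes in 8 lists around the family, filled where the adjusted P was below 0.05, with each list's median in red and that of all tested genes dashed. The G1/S and G2/M lists lie almost wholly below zero (medians −1.32 and −1.42), with CCNE1 the 1 G1/S gene above it, while kinases and inhibitors spread to both sides.

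The targets of the family were lower almost throughout. Of 39 tested G1/S targets of E2F, 38 were lower and 27 at least 2-fold (median log2 fold change −1.32), and CCNE1 was the 1 that was higher. Over all tested genes 30.1% were lower and 4.51% at least 2-fold lower. RRM2, the small subunit of ribonucleotide reductase, fell from 286 ± 24.6 to 46.6 ± 3.51 CPM (−2.62). The replication initiation factor MCM10 changed by −2.23, the origin licensing factor CDC6 by −1.88, and the helicase subunit MCM5 by −1.50. Nucleotide synthesis genes were lower too, with TK1 at −1.74 and TYMS, 47.9% of whose exons are overlapped by ENOSF1 and TYMSOS, at −1.63. PCNA, the sliding clamp, fell from 390 ± 32.9 to 124 ± 9.71 CPM (−1.65), and CDC25A, the phosphatase that activates CDK2, changed by −0.94.

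All 28 G2/M targets of DREAM were lower, 27 of them at least 2-fold (median −1.42), against 30.1% and 4.51% of all tested genes. CCNB2, a mitotic cyclin, fell from 189 ± 10.9 to 45.2 ± 3.06 CPM (−2.06), UBE2C, an E2 of the anaphase-promoting complex, changed by −1.94 and the mitotic kinesin KIF20A by −1.69. With siCHKA replicates 1, 3 and 5 alone, 38 G1/S and 28 G2/M genes were lower, and with replicates 2, 4 and 6 alone 37 and 28. The E2F words stood in 18 of the 33 matched G1/S promoters (54.5%) and in 2 of 23 G2/M promoters (8.70%). The word TTTGAA, the core of the cell cycle homology region read by LIN54, stood in 17 of the 23 G2/M promoters (73.9%) and in 3 of the 33 G1/S promoters (9.09%), searched on both strands in the same span, against 13.2% of promoters of tested genes. Among members it was found in 1 of 2 E2F3 promoters, 65 bases before the start, and in 1 of 2 RBL2 promoters, 24 bases after the start. That RBL2 start lay 494 bases from the annotated start of the gene. The E2F words were in 8.88% of promoters of lower genes, in 4.84% of those of higher genes and in 6.12% of those of genes that did not pass, and in 11.8% for genes at least 2-fold lower.

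The apoptotic targets of E2F1 did not move with the cell cycle targets. Of 10 tested, 2 were lower, 3 higher and 5 did not pass (median −0.06). Over all tested genes 30.1% were lower and 32.1% higher, so these counts do not set the list apart. PMAIP1 (NOXA) fell from 16.2 ± 0.824 to 6.84 ± 2.31 CPM (−1.23), while CASP9 (0.34), APAF1 (0.30) and CASP8 (0.28) rose, of which APAF1 did not pass with 1 count file per sample (0.23, adjusted P = 0.0802, edgeR).

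Of 14 corepressors that pocket proteins recruit, 11 were lower and 1 was higher (median −0.33). Over all tested genes 30.1% were lower and 32.1% higher. SUV39H1, the H3K9 methyltransferase, fell from 21.7 ± 1.54 to 3.23 ± 0.338 CPM (−2.73), further than any other gene of these pathway lists, and 21.2% of its exons are overlapped by another gene. ARID4A changed by −0.52 and the deacetylase HDAC3 by −0.39. KDM5A, a histone demethylase first found as an RB-binding protein, was higher by 0.25 (adjusted P = 0.0470, edgeR), with overlapping groups, and did not pass under 13 alternatives. Of 11 genes that control E2F turnover or activity, 7 were lower and none higher (median −0.31), although 3 were higher with siCHKA replicates 1, 3 and 5 alone. SKP2, the F-box protein that targets E2F1 and p27, fell from 127 ± 4.74 to 26.3 ± 3.13 CPM (−2.27), CDC20 changed by −1.57 and TOPBP1, which binds E2F1, by −0.92.

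Genes whose log2 CPM followed a member most closely over the 12 samples were named as a description. Correlations over both groups are carried by the group difference, since the samples form 2 groups. Those nearest to E2F1 among the 9629 genes averaging 10 CPM or more were FAM83D, MCM2 and HASPIN (r = 0.999 to 0.998). For E2F8 they were SPAG5, VCL and FAM222B (0.997 to 0.996), and for RB1 SLC16A14, SRP68 and NAT10 (0.995 to 0.994). Of the other members, RBL1 stood at rank 128 for E2F1 (r = 0.990) and at rank 16 for E2F8 (0.993), whereas RBL2 stood at rank 4911 and 4689 (0.195 and 0.288). On deviations from the group means, which remove that difference, FAM83D was again nearest to E2F1 (0.957). These deviations also hold the gap between the 2 sets of siCHKA samples.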

How the data were processed

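The counts were deposited by the authors as whole reads per Ensembl gene, without normalization, in 4 files per sample. Per the paper and the labels, single-end reads of 40 bases were aligned to GRCh37 (Ensembl release 64 genes) with TopHat2 2.0.4 and counted with HTSeq 0.5.3p9. DESeq 1.10.1 was the authors' test. The strand setting of the counting is not given in the sources used here. Entries aligned to more than 1 place (26.1 to 30.6% of the tally), to overlapping genes (2.82 to 2.93%) or to no gene (3.95 to 5.97%) were outside the counts. These are shares of the entries tallied in the counting. Whether a read aligned to several places was tallied more than 1 time is not given, so they may differ from shares of reads. The RNA kit differs between the labels and the paper's methods.

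The 4 files of a sample differed by no more than sampling noise (chi-square per degree of freedom 0.986 to 1.01) and were summed. Within a group no pair of samples came as close, so all 12 were kept. The closest pairs were siCHKA replicates 2 and 4 (2.39) and siNT replicates 5 and 6 (2.51). The tests treated the 6 samples of a group as independent, which the labels do not establish. Groups came from the sample titles. Gene symbols and the printed GRCh38 coordinates come from GENCODE release 44, matched on Ensembl identifier (82.8% of identifiers). With edgeR 4.0.16 in R 4.3.3, genes passing filterByExpr were scaled by TMM and tested with the quasi-likelihood test, siCHKA against siNT, no covariates, with Benjamini-Hochberg adjustment over all 14501 genes and a threshold of 0.05. Log2 CPM used a prior count of 2. RPKM divides CPM by the kilobases of merged exons. Scripts were tested on simulated data. Promoter sequences are RefSeq's (GRCh38.p14), separate from the files' build. Python 3.11.15 with scipy 1.17.1 served the other steps.

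The members and gene lists were chosen with earlier results of these data known. Genes are named by rule: the members, CHKA, E2F6 and the DP partners, all MuvB and kinase or inhibitor genes, up to 3 genes per direction with the smallest P in each other list, 9 standard targets whatever their value (UHRF1 was not analysed here), and 3 genes most like E2F1, E2F8 and RB1. Alternatives were RLE scaling, DESeq2 1.42.0, other filters, the replicate number as a block, either set of siCHKA samples, 1 count file, equal depth, each replicate left out, a 2-fold minimum and another gene length. The counts of list members under 3 of these were added after seeing the data. Some genes that the rule names are not reported here.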

Additional observations from a re-analysis of the deposited data

Results flagged for a closer look

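Among 52 groups of 6 samples examined, 3 held a sample far from the other 5, where chance flags about 1 in 20 groups (2.6 of 52). Summed repressor E2Fs were 15.7 RPKM in siCHKA replicate 5 and 17.7 to 18.4 RPKM in the other 5, the sample in which E2F4 and E2F5 were lowest. In siNT replicate 4 the activator to repressor ratio was 1.60 against 1.35 to 1.40 in the others, and the activator share of the summed transcript of the 7 E2Fs was 61.5% against 57.4 to 58.4%, both values coming from the same levels.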

How the results depend on the processing

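Over 21 refits (RLE scaling, DESeq2, filters, block, sets, depth, 1 count file and each replicate left out), E2F1, E2F2, E2F3, E2F4, E2F7, E2F8, RB1 and RBL1 stayed lower and past the threshold, the weakest being E2F4 (adjusted P at most 0.0230). E2F5 lost its call with siCHKA replicates 2, 4 and 6 (−0.17) and with 1 count file (−0.27). RBL2 never passed and turned to 0.0010 with replicates 2, 4 and 6. CCND3 turned to 0.051 with replicates 1, 3 and 5 and to 0.018 with 1 count file, and passed at −0.23 with replicates 2, 4 and 6. A 2-fold minimum left 654 lower and 785 higher genes. The causes were not tested. With the length of the longest coding transcript, summed repressors were 64.4% of siNT and, after siCHKA, activators were 43.1% of the transcript of the 7 E2Fs, canonical repressors 43.4% and atypical repressors 13.5%, and RB1 32.5%, RBL1 12.6% and RBL2 54.9% of pocket protein transcript. In siNT samples these lengths gave 48.8%, 31.1% and 20.02%, and 42.9%, 17.0% and 40.1%, so each share moved in the same direction as before.

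Leaving out each replicate gave 4221 to 4402 lower and 4435 to 4596 higher genes, and log2 fold changes of −1.25 to −1.18 for E2F1, −1.87 to −1.80 for E2F2, −0.57 to −0.53 for E2F3, −0.40 to −0.30 for E2F4, −0.25 to −0.18 for E2F5, −1.75 to −1.64 for E2F7, −1.09 to −1.03 for E2F8, −0.95 to −0.86 for RB1, −0.99 to −0.92 for RBL1 and −0.11 to −0.02 for RBL2. The replicate numbers did not pair the samples (correlations of same-numbered deviations from −0.40 to 0.32), and the replicate block gave 4273 lower and 4494 higher genes and changed no member's call. CDKN2B, at low counts, was tested in 19 of the 21 refits, and CCND2 and TFDP3 were too low to test.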
